A study of Mus musculus with 130 samples.

Results

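The 20 embryos with the highest and the 20 with the lowest level of endoplasmic reticulum (ER) stress genes were compared among 80 mouse embryos cultured with SR1848. The series holds 130 embryos, each sequenced as its own library. The members were chosen by a score, the mean over Herpud1, Hspa5, Ddit3, Atf4 and Xbp1 of log2(CPM + 1), where CPM is an embryo's counts of a gene scaled to a common total over all counts with a gene name. They are called high-score and low-score embryos here, and the 40 SR1848 embryos between them are called middle embryos. All embryos came from B6129F1 mice and were sequenced at the 2-cell stage. Zygotes taken 5 hours after fertilization were moved at 6 hours to KSOM medium, in wet chambers without oil, with 10 µM SR1848 or with 0.1% DMSO. SR1848 is an inhibitor of the orphan nuclear receptor Nr5a2, also named LRH-1, so both compared groups carry the inhibitor and differ by no label. The 50 embryos in DMSO, titled NT, are the controls, and 6 more that the design text counts were not analysed here. Smart-seq2, which copies whole polyadenylated transcripts from an oligo-dT primer, gave the libraries. The labels do not tie embryos to females, drops or plates, so the p-values rest on the spread among the embryos, which can be partly technical. Each value is a level in a whole embryo, so fewer transcribing blastomeres and less RNA per blastomere cannot be told apart.

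The ER folds secreted and membrane proteins, and the unfolded protein response adjusts its capacity when folding fails. Sensors in the ER membrane start it: IRE1 splices the Xbp1 mRNA, ATF6 is cleaved into a transcription factor, and PERK phosphorylates the initiation factor eIF2, which lowers general translation and favours translation of Atf4. ATF4 is shared with other stresses that reach eIF2, a branch known as the integrated stress response. Hspa5 encodes BiP, the main ER chaperone of the Hsp70 family, and Herpud1 encodes a membrane protein of ER-associated degradation. Ddit3 encodes CHOP, a transcription factor linked to stress-induced cell death.

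The promoters of the score genes are shown because these branches are known to act through short DNA elements. They were searched for 3 motifs on both strands of the RefSeq window (GRCm38.p6) that reaches from 250 bases before to 50 bases after each start site. The ER stress response element, bound by ATF6 and XBP1, was searched as CCAAT and CCACG with 9 bases of any kind between them, the UPR element as TGACGTGG, and the C/EBP-ATF response element, bound by ATF4 with C/EBP partners, as TGATGCAA, TGATGTAA, TGATGAAA or TGATGGAA. The first and second motifs can share the letters CCACG on opposite strands. Of the 5 score genes, Hspa5 held the ER stress response element in the form searched and Herpud1 the C/EBP-ATF element. Other spacings and orientations of CCAAT and CCACG were not searched. The Herpud1 sequence below holds ATTGG, the complement of CCAAT, close before CCACG, and this stretch is left in lower case. Capitals mark the outer letters of the ER stress response element or all letters of the C/EBP-ATF element, which reads as its complement where it lies on the other strand. Each sequence ends at or before the RefSeq start site. The site of Hspa5 lies before the RefSeq start and inside what GENCODE M21 annotates as the 5′ UTR of transcript Hspa5-201, so only the bases around it are shown.
Hspa5, chr2:34772020-34772049, plus strand: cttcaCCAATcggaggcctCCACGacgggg
Herpud1, chr8:94386179-94386428, plus strand: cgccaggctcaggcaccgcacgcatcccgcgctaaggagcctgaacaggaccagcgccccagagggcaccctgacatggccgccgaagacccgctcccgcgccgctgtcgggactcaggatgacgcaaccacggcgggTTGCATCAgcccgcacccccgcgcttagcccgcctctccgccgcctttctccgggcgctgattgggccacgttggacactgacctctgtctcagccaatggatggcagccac
Outside the score, the ER stress response element was shown for Creld2 and Calr, which encode an ER protein with disulfide isomerase activity and the lectin chaperone calreticulin, and the C/EBP-ATF element for Atf3, the gene with the largest rise named in this report.
Creld2, chr15:88819490-88819568, plus strand: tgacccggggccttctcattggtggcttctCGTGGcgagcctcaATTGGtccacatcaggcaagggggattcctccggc
Calr, chr8:84847045-84847123, minus strand: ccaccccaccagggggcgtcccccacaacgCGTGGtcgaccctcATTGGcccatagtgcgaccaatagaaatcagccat
Atf3, chr1:191183406-191183473, minus strand: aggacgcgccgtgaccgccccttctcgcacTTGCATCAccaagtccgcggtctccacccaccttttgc
A match is a run of letters and not a measured binding site.

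The score genes themselves chose the embryos, so their values are a description. They lie at chr8:94386438-94395377 (Herpud1), chr2:34771970-34777547 (Hspa5), chr10:127290774-127296288 (Ddit3), chr15:80255184-80257541 (Atf4) and chr11:5520659-5525893 (Xbp1) on mm10 (GENCODE M21). Herpud1 ran from 11.3 to 192 CPM in the high-score embryos, median 65.8, and from 0 to 21 in the low-score embryos, median 1.95. It was at 0 in 33 of 50 controls, whose highest value was 15.3 CPM. Herpud1 was thus the score gene that stood furthest from the controls, with 19 of 20 high-score embryos above every control. Hspa5 ran from 1181 to 4474 CPM, median 2249.5, against 169.5 to 2640.3, median 904, with a control median of 1341. Atf4 ran from 192 to 805 CPM, median 356, against 62.5 to 319, median 138, with a control median of 188. The control medians of Hspa5 and Atf4 thus lay between those of the compared groups, with overlap between the groups in both genes. Ddit3 ran from 1.26 to 30.5 CPM, median 14.7, against 0.887 to 13.1, median 3.61, with a control median of 11.1. Xbp1 ran from 0.46 to 56.5 CPM, median 12.8, against 0 to 9.74, median 0, with a control median of 8.52. This is the level of all Xbp1 transcripts, and it does not show splicing by IRE1. For Ddit3 and Xbp1 the high-score medians lay near the control medians and the low-score medians well below them.

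**Figure D1:**
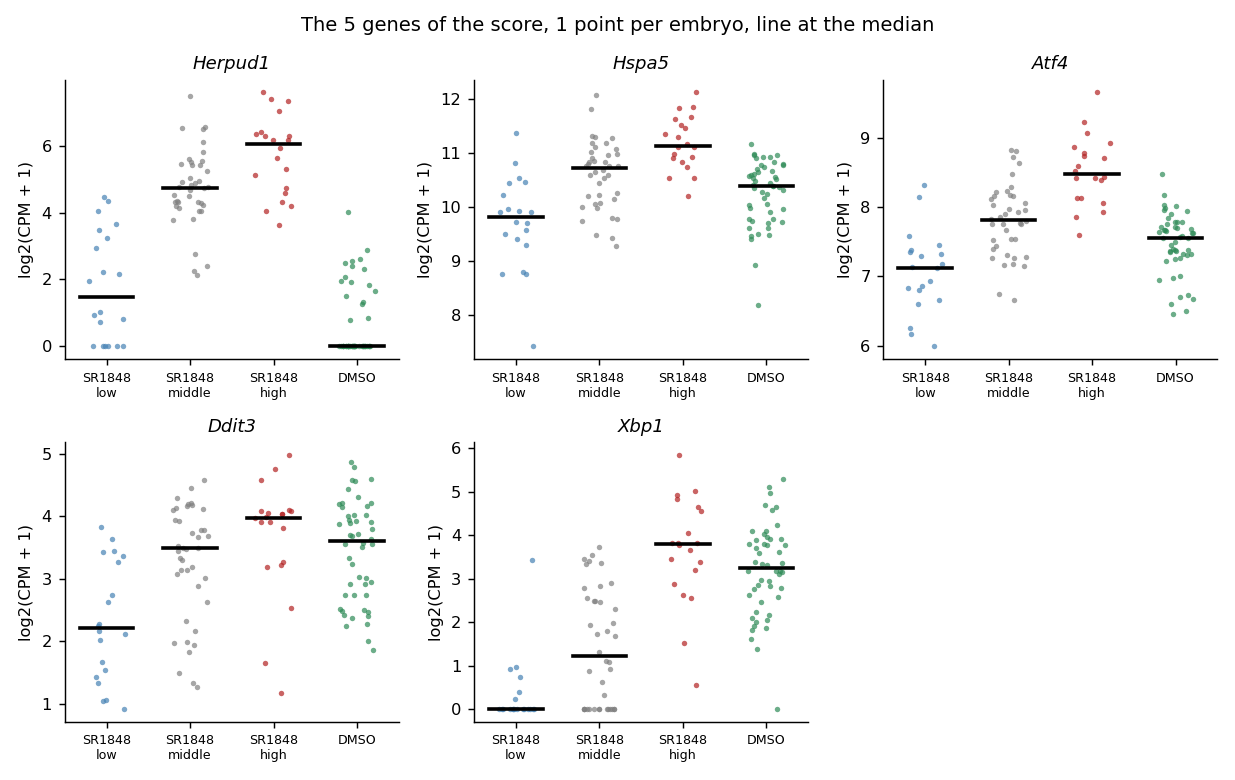
Level of the 5 score genes as log2(CPM + 1) in 20 low-score, 40 middle and 20 high-score SR1848 embryos and 50 DMSO embryos, 1 point per embryo with a line at the median. Herpud1 was at 0 in 33 controls, while the control medians of Ddit3 and Xbp1 lay near those of the high-score embryos.

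Scores ran from 6.10 to 7.38 in the high-score embryos, from 3.22 to 5.09 in the low-score embryos and from 4.44 to 6.08 in the controls. The embryos just inside and just outside the upper edge scored 6.105 and 6.097, and those at the lower edge 5.0945 and 5.0988, so neither edge falls at a wide gap. All 20 high-score embryos scored above every control, and 12 of 20 low-score embryos scored below every control. The score, which chose the embryos, thus spread in both directions from the controls, unevenly among its genes. Of the 20 high-score embryos, 19 lay above every control in Herpud1, 10 in Atf4, 9 in Hspa5 and 1 each in Ddit3 and Xbp1. Of the 20 low-score embryos, 7 lay below every control in Ddit3, 3 in Atf4, 1 in Hspa5 and 0 in Herpud1 and Xbp1, where controls reached 0. Across all 80 SR1848 embryos, on the log2(CPM + 1) scale, the Pearson correlation was 0.68 between Herpud1 and Hspa5, 0.66 between Herpud1 and Atf4 and 0.70 between Hspa5 and Atf4 (Spearman's rho 0.67, 0.60 and 0.71), and 0.66, 0.64 and 0.68 without the 2 embryos farthest from the median. These are descriptions, with no p, because these genes define the groups and each pair shares a library. The remaining pairs with Ddit3 or Xbp1 had correlations of 0.14 to 0.37. In the 50 controls the same 3 pairs had correlations of -0.17, 0.06 and -0.05 (rho -0.11, -0.0061 and 0.045), with adjusted p of 0.750, 0.756 and 0.756 for r and 0.966 for each rho by permutation over 10 pairs. Without the 2 embryos farthest from the median these r values were -0.23, 0.069 and 0.198. Herpud1, which is in the first 2 of these pairs, was at 0 in 33 of 50 controls, which leaves it little range to correlate. Of the 10 pairs in controls, Hspa5 and Xbp1 had the highest correlation, r = 0.36 (permutation p = 0.0101, adjusted 0.101) and rho = 0.43 (permutation p = 0.00236, adjusted 0.0236), and r = 0.43 without the 2 farthest embryos. The difference between SR1848 and control embryos in these correlations was not tested.

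Total counts per embryo ran from 3316509 to 7765360 in the high-score and from 2978311 to 6884224 in the low-score embryos, and their difference did not pass the test (two-sided permutation test, adjusted p = 0.305). Among the 5 library measures tested, the share of counts on the 100 most abundant genes differed, at 31.3 ± 4.39% (SD, n = 20) in high-score and 37.5 ± 3.95% (SD, n = 20) in low-score embryos (two-sided permutation test, adjusted p = 0.0005). Genes detected after thinning, the mitochondrial share and a B2 repeat entry did not pass the test (adjusted p = 0.285, 0.291 and 0.112). Nr5a2, the target of the inhibitor, had medians of 9.21 CPM in high-score and 8.81 in low-score embryos against 105 in controls. Its level did not separate the high-score from the low-score embryos (log2 fold change 0.44 ± 0.33, SE, adjusted p = 0.319, edgeR), and an inhibitor of the protein is not checked by the level of its mRNA.

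Outside the score genes, 11666 genes were tested with edgeR's quasi-likelihood test, and 3825 (32.8%) differed at a Benjamini-Hochberg adjusted p under 0.05, which is what "called" means below. Of all genes tested, 15.1% were called higher and 17.7% lower in the high-score embryos. At least 2-fold, 1200 were called higher and 1034 lower. No gene separated the groups without overlap (0% of genes in either direction). The direction of the balance depends on scaling: 46.01% of called genes were higher with TMM factors, 60.8% with total counts alone and 94.6% after scaling to stored oocyte transcripts. Over all genes tested, the median log2 fold change was 0.021, 0.18 and 0.79 under these scalings, and the fold changes below are to be read relative to these medians. Scaled to oocyte transcripts, 21 of the genes named below, each lower as reported, changed sign; these are given by name beside their values or in the closing section. The largest named rises were in Atf3 (described with its pathway below), Cldn5, a tight-junction protein, and Fzd5, a Wnt receptor. Cldn5 ran from 2.99 to 195 CPM, median 56.6, in high-score embryos and from 0 to 36.9, median 3.01, in low-score embryos, log2 fold change 3.22 ± 0.57 (SE, adjusted p = 3.29e-05, edgeR). Fzd5 ran from 2.01 to 77.8 CPM, median 39.5, against 0 to 22.4, median 1.8, log2 fold change 3.15 ± 0.54 (adjusted p = 1.94e-05, edgeR). In these genes 11 and 15 of 20 high-score embryos lay above every low-score embryo. Psenen, which encodes a subunit of gamma-secretase, had the largest named fall, with 0 to 12.8 CPM, median 6.7, against 3.36 to 118, median 30.5, log2 fold change -2.66 ± 0.39 (adjusted p = 1.85e-06, edgeR). The control median of 9.61 CPM lay beside that of the high-score embryos. Grm4, a glutamate receptor, and Gng3, a G-protein subunit, fell likewise (log2 fold change -2.39 and -2.14).

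Genes that encode ER chaperones and folding enzymes were called higher more often than lower in the high-score embryos. Of 22 tested, 10 were called higher and 1 lower, with a median log2 fold change of 0.53, beside 15.1% and 17.7% of all genes. P4hb, the protein disulfide isomerase, ran from 195 to 1607 CPM, median 634, in high-score embryos and from 42.1 to 589.8, median 201, in low-score embryos. The difference was 1.69 ± 0.26 on the log2 scale (SE, adjusted p = 4.66e-06, edgeR), and 11 of 20 high-score embryos lay above every low-score embryo. Manf, a secreted ER stress protein, ran from 58.4 to 598 CPM, median 201, against 9.07 to 268, median 41.9 (log2 fold change 1.78 ± 0.33, adjusted p = 4.82e-05, edgeR). Sdf2l1, a BiP cofactor, had medians of 56.9 and 11.2 CPM (log2 fold change 1.94) and Creld2 medians of 478 and 232 CPM (0.93). Among genes chosen after their values were seen, Calr (0.66), Pdia3, an isomerase that works with calreticulin (0.86), Hyou1, a large ER chaperone (1.12), and Dnajb9, a BiP cochaperone (1.71), were also called higher. Fkbp14, a prolyl isomerase, was the member called lower (-1.38 ± 0.44, adjusted p = 0.0139, edgeR). The groups overlapped in each of these genes.

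Set beside the controls, most but not all of the chaperone genes outside the score did not follow the name "high ER stress". Hspa5, as a score gene, is not in this list or its sum. Their summed level had a median of 2695 CPM in high-score embryos (range 1952 to 4606), 1296 in low-score embryos (660 to 2639) and 3816 in controls (2286 to 6412). The high-score median was below the control median in 14 of 22 members and above it in 8. The low-score median was below the control median in 17 of 22. Dnajb9 was one of these members. It ran from 42.2 to 805 CPM, median 233, in high-score embryos, from 7.08 to 674, median 23.4, in low-score embryos, and from 632 to 2362, median 1125, in controls. Creld2 and Manf, in contrast, had control medians of 171 and 151 CPM, below their high-score medians. Sdf2l1 and Hyou1 did likewise, with control medians of 33.7 and 11.1 CPM against high-score medians of 56.9 and 18.1. P4hb, Calr and Pdia3 went the other way, as Dnajb9 did.

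ER-associated degradation, which returns misfolded proteins to the cytosol for the proteasome, had 5 of 22 members called higher (22.7%) and 1 lower (4.55%), with a median of 0.13, beside 15.1% and 17.7% of all genes. Those higher were Vcp, the ATPase that pulls substrates out of the membrane (1.53), the ubiquitin-conjugating enzyme gene Ube2j2 (1.32), the Vcp partners Selenos (1.54) and Faf2 (1.19), and Selenok (0.82). Os9, a lectin that recognises misfolded glycoproteins, was lower (-0.66), and reversed to 0.16 when scaled to oocyte transcripts. Selenos ran from 26.8 to 225 CPM in high-score and from 0 to 199.6 in low-score embryos, while the lowest control had 336 CPM. All high-score embryos were thus under the controls for this gene.

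Sensors and regulators of the response were called in both directions, 5 of 23 higher (21.7%) and 4 lower (17.4%), near the shares over all genes (median 0.36). Higher were Eif2b2 (1.47) and Eif2b4 (0.70), subunits of the exchange factor that eIF2 phosphorylation inhibits, Ppp1r15b, a subunit of the phosphatase that reverses it (2.01), the ER-anchored transcription factor Creb3l1 (1.40) and Mbtps1, the protease that starts ATF6 cleavage (0.77). Lower were Creb3l4, a relative of Creb3l1 (-1.35), Mbtps2, the protease that completes ATF6 cleavage (-0.74), the kinase gene Map3k5 (-0.74) and Eif2b1 (-0.64). Scaled to oocyte transcripts, Mbtps2, Map3k5 and Eif2b1 changed sign (0.03, 0.081 and 0.19). Creb3l4 ran from 9.21 to 67.8 CPM, median 40.1, in high-score and from 40.5 to 166, median 93.6, in low-score embryos, with a control median of 29.4. In this gene the high-score embryos again lay beside the controls.

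Known ATF4 and CHOP targets were called higher more often than lower in the high-score embryos. Of 19 tested, 6 were called higher (31.6%) and 2 lower, with a median of 0.80, beside 15.1% and 17.7% of all genes. The share called higher thus lay above that of all genes, and the share called lower lay below it. Atf3, a stress-induced transcription factor, ran from 1.77 to 187 CPM, median 28.9, in high-score embryos, from 0 to 16, median 2.69, in low-score embryos and from 0 to 8.38, median 0, in controls. The difference was 3.26 ± 0.57 on the log2 scale (SE, adjusted p = 2.28e-05, edgeR), and 15 of 20 high-score embryos lay above every low-score embryo. Trib3, a pseudokinase induced by ATF4 and CHOP, ran from 68.1 to 321 CPM, median 195, against 5.26 to 151, median 56.6 (log2 fold change 1.53 ± 0.22, adjusted p = 1.92e-06, edgeR). Ppp1r15a, the inducible phosphatase subunit GADD34, ran from 403 to 2663 CPM, median 1128, against 38.6 to 972, median 392 (1.56 ± 0.24, adjusted p = 3.93e-06, edgeR). Their control medians, 99.5 and 407 CPM, lay under the high-score medians. The members called lower were Cth, which makes cysteine (-1.90 ± 0.27), and Slc7a11, the cystine importer (-1.33 ± 0.27). Cth ran from 4.34 to 22.4 CPM, median 9.32, against 11.1 to 95.9, median 30.3, and 12 of 20 high-score embryos lay below every low-score embryo.

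Lists of the amino acid arm of ATF4 and of the secretory pathway are given beside the shares over all genes, 15.1% higher and 17.7% lower. Serine and one-carbon genes had 1 of 17 called higher with edgeR (Slc1a5, a glutamine carrier, 1.44), and 4 with DESeq2 or limma-voom, and 2 lower (Aldh18a1 of proline synthesis, -1.01, and Shmt2 of mitochondrial one-carbon metabolism, -0.39), and Shmt2 changed sign when scaled to oocyte transcripts (0.43). Of 19 tRNA synthetases 1 was called higher with edgeR (Aars, 1.12), 4 with DESeq2, and 1 lower (Farsb, -1.04), with a median of -0.05. Over all 11666 genes DESeq2 called 2354 higher and limma-voom 2123, so the counts of these tools have a larger background than edgeR's. ER translocation and glycosylation genes had 4 of 31 called higher, namely Rpn1 (1.47), Srp9 (0.62), Srp19 (1.29) and Ssr2 (0.92), and 7 lower, among them Srp14 of the signal recognition particle (-1.37). ER to Golgi transport had 6 of 28 called higher and 6 lower, with Sar1a, the COPII GTPase, up (1.18 ± 0.19) and Copz1, a COPI coat subunit, down (-1.95 ± 0.23, adjusted p = 5.71e-08, edgeR). Copz1 ran from 24.9 to 135 CPM, median 72.5, against 75.7 to 524, median 232. The medians of the synthetase and transport lists, -0.05 and -0.23, turned positive when scaled to oocyte transcripts (0.73 and 0.61).

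**Figure D2:**
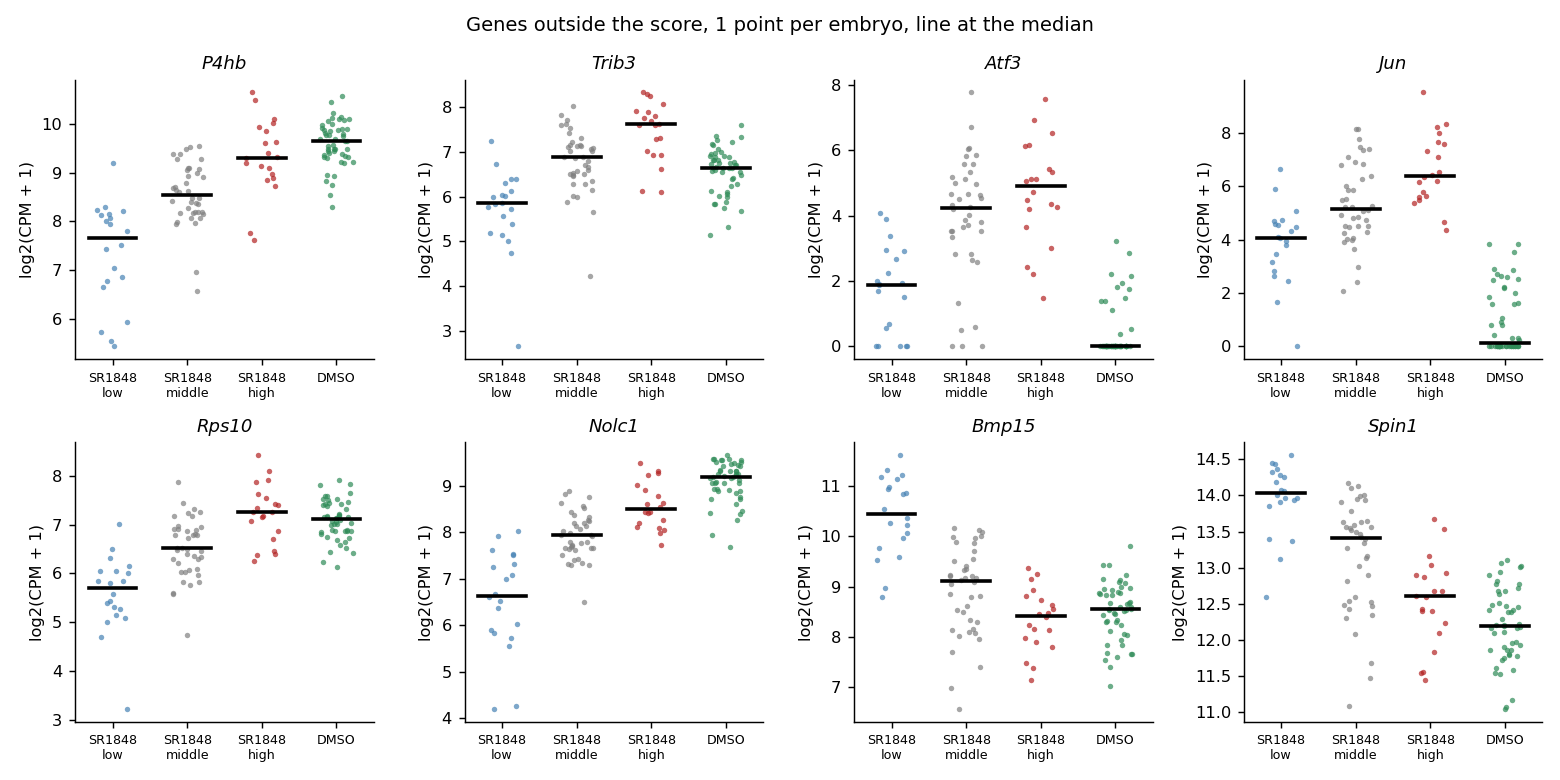
Level of 8 genes outside the score as log2(CPM + 1), 1 point per embryo with a line at the median. P4hb, Rps10, Bmp15 and Spin1 have high-score medians near the controls, while Trib3, Atf3 and Jun have high-score medians above them.

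Many stress genes of the cytosol and immediate-early genes were higher in the high-score embryos. Of 25 heat shock genes 14 were called higher (56%) and 2 lower (8%), with a median of 0.54. Of 25 immediate-early genes 20 were called higher (80%) and none lower (median 1.66). The shares over all genes were 15.1% and 17.7%. Hspa1a, the inducible Hsp70, ran from 94.2 to 1427 CPM, median 364, in high-score embryos, from 0 to 240.3, median 73.8, in low-score embryos, and had a control median of 18.8. Its log2 fold change was 2.41 ± 0.41 (adjusted p = 1.97e-05, edgeR), and reads of Hspa1a and its near-identical neighbour Hspa1b (2.50) are split with uncertainty. Hspa2, a testis-enriched Hsp70 relative, had medians of 432, 105 and 34.5 CPM in high-score, low-score and control embryos. Those called lower were Dnajb4 (-1.32) and Ahsa1 (-0.44), cochaperones of Hsp70 and Hsp90, and Ahsa1 changed sign when scaled to oocyte transcripts (0.39). Jun, a subunit of the AP-1 transcription factor, ran from 19.4 to 733 CPM, median 82.4, against 0 to 98.1, median 15.8, with a control median of 0.082 (log2 fold change 2.69 ± 0.45, adjusted p = 1.24e-05, edgeR). Gadd45b ran from 98.9 to 606 CPM, median 164, against 33.3 to 169, median 52.7 (1.58 ± 0.21, adjusted p = 2.41e-07, edgeR). Ier3 (1.59), Klf4 (1.41) and Dusp6, a phosphatase that limits ERK signalling (0.83), were also higher. All 25 immediate-early genes had high-score medians above the control medians, and 19 of 25 had low-score medians above them.

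Genes of p53 and of cell death were called in part, and are given beside 15.1% higher and 17.7% lower over all genes. Of 20 p53 genes 8 were called higher (40%) and 2 lower (10%), with a median of 0.57. Bax, which permeabilises mitochondria, ran from 14.9 to 145 CPM, median 41, against 1.01 to 30.3, median 14.8 (log2 fold change 1.37 ± 0.27, adjusted p = 0.000118, edgeR). Plk2 (1.08) and Gadd45a (1.60) were higher, while Mdm4, an inhibitor of p53, and the repair gene Ddb2 were lower (-0.76 and -0.65, and 0.016 and 0.15 when scaled to oocyte transcripts). Of 19 apoptosis genes 5 were higher (26.3%), namely Bax, Pmaip1 (2.04), Bcl2l11 (0.88), Apaf1 (0.87) and the survival gene Mcl1 (1.39). Lower were 3 (15.8%, near the share over all genes), namely Birc3 (-0.99), Bik (-0.93) and Bcl2l10 (-0.70). Bax and Pmaip1 are counted in both the p53 and the apoptosis list. Other lists share members too. Atf3 is counted among ATF4 and CHOP targets and immediate-early genes. Klf4 is counted among immediate-early genes and activation factors, and Obox5 among stored oocyte transcripts and activation factors. Of 22 genes of the oxidative stress response 6 were called higher (27.3%) and 4 lower (18.2%, near the share over all genes), with a median of 0.22. Sod1 (1.19) and Gpx1 (1.14), which remove superoxide and peroxide, were higher, and G6pdx (-1.34), Nqo1 (-1.91), Prdx1 (-0.96) and Nfe2l2, the NRF2 gene itself (-0.70), were lower.

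Transcription factors best known from later patterning were higher in high-score embryos. Of 23 tested, 15 were called higher (65.2%) and 1 lower (4.35%), with a median of 1.14, beside 15.1% and 17.7% of all genes. Hes6 ran from 80.3 to 854 CPM, median 301, in high-score embryos, from 19.5 to 218, median 67.4, in low-score embryos, and had a control median of 4.21 (log2 fold change 1.89 ± 0.31, adjusted p = 9e-06, edgeR). Id1, an inhibitor of helix-loop-helix factors, had medians of 217, 55.7 and 17.4 CPM in the same order, and Olig1 medians of 197, 48.7 and 1.43. The high-score embryos were thus the further of the compared groups from the controls for these genes. Id4 (2.36) and Sox2 (1.61) were also higher, and Gata3 was lower (-1.13). The summed level of the list had a median of 2737 CPM in high-score, 1049 in low-score and 219 in control embryos.

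Genes of the 2-cell stage, which mark the burst of genome activation, were called in a number that depended on the tool and the scaling. Of 24 tested, edgeR called 2 higher (8.33%) and none lower (median 0.39), beside 15.1% and 17.7% of all genes. There were 4 higher with DESeq2, 6 with limma-voom and 17 when scaled to oocyte transcripts. Beside these stand 2354, 2123 and 5941 of all 11666 genes called higher in the same settings. Those called by edgeR were Snai1, a zinc-finger repressor, and Tdpoz1. Snai1 ran from 70.1 to 645 CPM, median 334, against 22.3 to 146, median 83.1, with 17 of 20 high-score embryos above every low-score embryo (log2 fold change 1.83 ± 0.24, adjusted p = 2.71e-07, edgeR). Tdpoz1, of a family with near-identical copies, had medians of 57 and 10.8 CPM (1.36 ± 0.48, adjusted p = 0.0263, edgeR). Zscan4c and Tcstv3, also in families of near-identical copies, had log2 fold changes of 0.92 ± 0.43 and 0.78 ± 0.34 and did not pass the test (adjusted p = 0.094 and 0.0781, edgeR). Of 28 factors proposed to act in genome activation 8 were called higher (28.6%) and 5 lower (17.9%, near the share over all genes), with a median of 0.56. Kdm5b, a histone H3K4 demethylase, had medians of 125 CPM in high-score, 25.1 in low-score and 498 in control embryos (2.63 ± 0.47, adjusted p = 3.96e-05, edgeR), and Mycn medians of 84.3, 15.4 and 5.54 CPM (2.13). Lower were Obox5 (-1.60), Zfp281 (-1.20), Dppa2 (-1.01), Klf17 (-0.49) and Yap1 (-0.36).

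Transcripts stored by the oocyte, which are degraded as the embryo takes over, were lower in the high-score embryos. Of 44 tested, 30 were called lower (68.2%) and 1 higher (2.27%), with a median of -0.92, beside 17.7% and 15.1% of all genes. Bmp15, an oocyte growth factor, ran from 140.0 to 664 CPM, median 342, in high-score embryos and from 441 to 3148, median 1402, in low-score embryos. The difference was -2.28 ± 0.22 on the log2 scale (SE, adjusted p = 1.63e-09, edgeR), 15 of 20 high-score embryos lay below every low-score embryo, and the control median was 375. Spin1, a chromatin reader of the meiotic oocyte, ran from 2777 to 13012 CPM, median 6211, against 6197 to 24154, median 16719, with a control median of 4689 (-1.52 ± 0.18, adjusted p = 5.5e-08, edgeR). For both genes the low-score embryos stood apart from the controls and the high-score embryos lay near them. Tcl1 (-1.76) and Nlrp4f (-1.71) fell likewise. Zp3, of the egg coat, was the member called higher (0.70). Zbed3, the most abundant member, had a log2 fold change of 0.15 ± 0.26 and did not pass the test (adjusted p = 0.708, edgeR). Scaled to the summed counts of this list itself, 13 members were called lower and 13 higher, with a median of -0.11.

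Genes for the ribosome were higher in the high-score embryos. Of 79 ribosomal protein genes 57 were called higher (72.2%) and 1 lower (1.27%), with a median of 0.88. Of 55 ribosome biogenesis genes 28 were called higher (50.9%) and 1 lower (1.82%), with a median of 0.69. The shares over all genes were 15.1% and 17.7%. Rps10 ran from 74.9 to 341 CPM, median 152, in high-score embryos and from 8.39 to 128, median 50.9, in low-score embryos, with a control median of 137 (log2 fold change 1.44 ± 0.22, adjusted p = 3.52e-06, edgeR). Rpl18 (1.08) and Rplp0 (0.60) were also higher, and Rpl17 was the member called lower (-1.24). Many ribosomal protein genes have processed copies that share their sequence, so their single values are uncertain. Nolc1, a nucleolar protein, ran from 212 to 716 CPM, median 361, against 17.3 to 261, median 98.6, with 18 of 20 high-score embryos above every low-score embryo (1.67 ± 0.24, adjusted p = 9.21e-07, edgeR). Rrs1 (2.94), Imp3 (2.21) and Ubtf, which acts on ribosomal DNA (2.10), were higher, and Rrn3, a factor of RNA polymerase I, was lower (-0.36). The low-score median lay below the control median in 78 of 79 ribosomal protein genes, and the high-score median in 62 of 79.

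**Figure D3:**
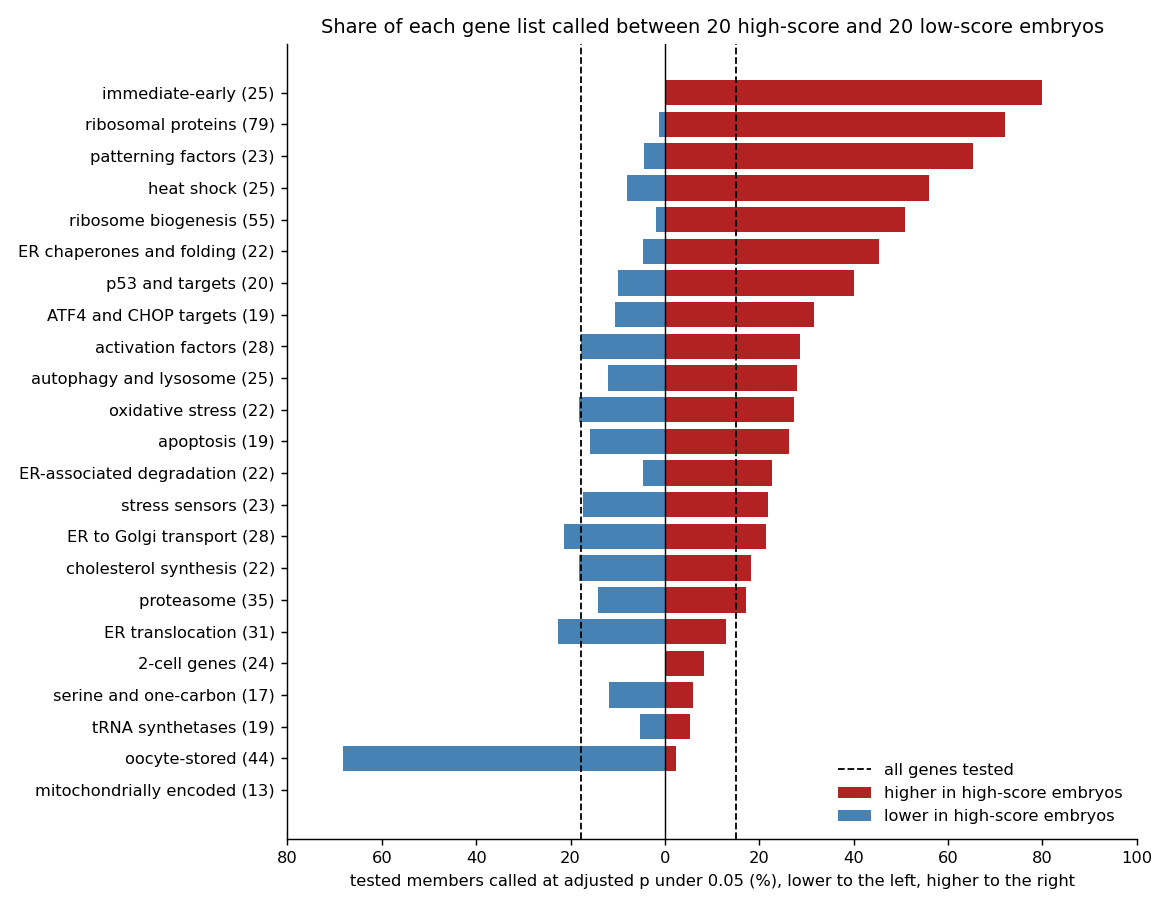
Share of each list's tested members (number in brackets) called higher, to the right, or lower, to the left, in high-score against low-score embryos at an adjusted p under 0.05 in edgeR. Dashed lines mark the shares over all genes tested, 15.1% and 17.7%; immediate-early and ribosomal protein genes reach furthest to the right, and stored oocyte transcripts to the left.

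The mitochondrial, proteasome, cholesterol and lysosome lists are given beside the same background of 15.1% higher and 17.7% lower. Of 13 mitochondrially encoded genes none was called (median -0.56, and 0.14 when scaled to oocyte transcripts). Of 35 proteasome genes 6 were called higher and 5 lower (median 0.16). With DESeq2 10 were called higher, beside 2354 of all 11666 genes with that tool. Psmd7 of the lid was up, and Psme3, Psmd1, Psmb3, Psmb2 and Psmd4 were down (-1.18, -0.71, -0.91, -0.78 and -0.47). Psmd7 ran from 197 to 951 CPM, median 402, against 5.37 to 302, median 98.7, with 17 of 20 high-score embryos above every low-score embryo (1.66 ± 0.26, adjusted p = 5.14e-06, edgeR). Of 22 genes of cholesterol synthesis 4 were higher, namely Cyp51 (1.74), Tm7sf2 (2.10), Dhcr7 (0.65) and Fdps (0.71), and 4 lower, namely Nsdhl (-2.36), Srebf2 (-0.72), Hmgcs1 (-0.58) and Sc5d (-0.55), with a median of 0.18. Of 25 genes of autophagy and the lysosome 7 were higher (28%), among them the protease gene Ctsb (1.60) and Map1lc3b (0.998), and 3 lower, namely Lamp2 (-0.93), Atg5 (-0.84) and Atp6v1h (-0.75), with a median of 0.47.

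The level of stored oocyte transcripts moved with the score, and its part in the results above was not tested beyond the following fit. As the mean log2(CPM + 1) of the list, it was 6.58 ± 0.32 (SD, n = 20) in high-score, 6.90 ± 0.40 (SD, n = 40) in middle, 7.24 ± 0.33 (SD, n = 20) in low-score and 6.35 ± 0.31 (SD, n = 50) in control embryos. Of the 20 SR1848 embryos with the lowest oocyte level 10 were high-score embryos, and of the 20 with the highest level 11 were low-score embryos. The oocyte level lay within the range of the controls in 17 high-score and in 4 low-score embryos. With this level as a covariate, edgeR called 105 genes (0.9%) between high-score and low-score embryos, 17 higher (0.146%) and 88 lower (0.754%). Since 52.2% of the variance of the group term is shared with the covariate, this fit has less power than the main one. Of the genes named here, Bmp15 (-1.40, adjusted p = 0.01), Pla2g4c, a phospholipase (-1.24, 0.0286), Spin1 (-0.68, 0.0441), Nolc1 (1.30, 0.049) and Sar1a (1.08, 0.0491) were among those still called by edgeR. Bmp15 and Spin1 belong to the list that makes the covariate, so their values are adjusted for a measure that contains them. No member of the ER chaperone, ER-associated degradation, ATF4 and CHOP target, immediate-early, heat shock or patterning lists was called in that fit. With 0.9% of all genes called there, this does not set these lists apart from all genes. P4hb, Trib3 and Atf3 had log2 fold changes of 1.03, 1.10 and 1.66 in it (adjusted p = 0.113, 0.0757 and 0.24, edgeR).

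**Figure D4:**
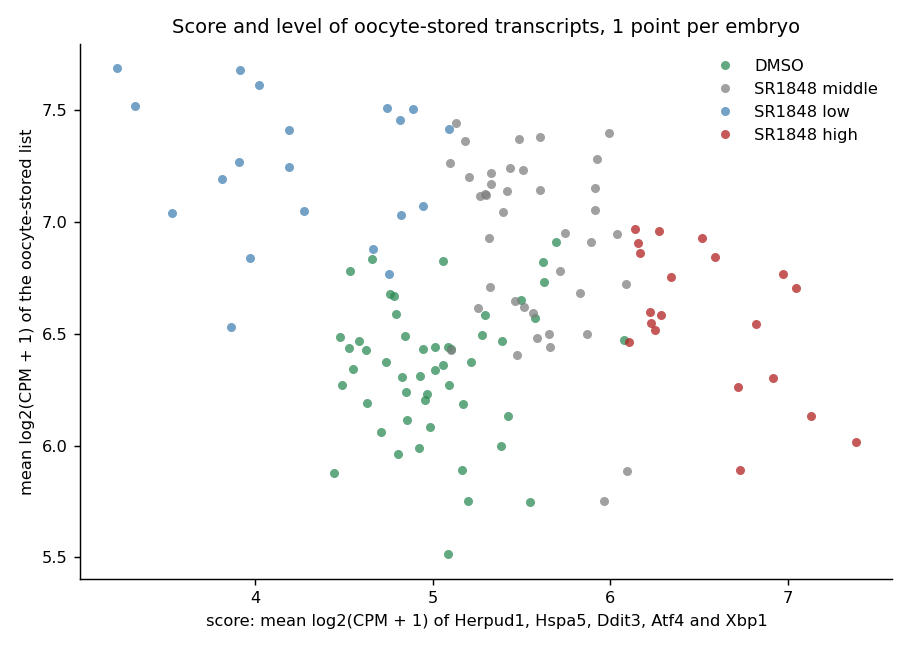
Mean log2(CPM + 1) of the stored oocyte transcripts against the score, 1 point per embryo. Low-score embryos reach the highest oocyte levels (mean 7.24), high-score embryos lie lower (6.58), and DMSO embryos lie at 6.35 with scores of 4.44 to 6.08.

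The 40 middle embryos and the 50 controls, which did not form the groups, were tested for a slope of each gene on the score. In the middle embryos 1 of 13280 genes was called (0.00753%), the predicted gene Gm18983, with 1013 at an unadjusted p under 0.05. Most called genes had slopes in the direction of the high-score against low-score difference: 84.2% of the 1760 called higher had a positive slope and 91.8% of the 2063 called lower that had a slope had a negative one, while 48.7% of all genes had a positive slope. Over all genes tested, called or not, the signs matched in 69.85% of those on the higher side and 73.45% of those on the lower side. Gadd45b had a slope of 1.38 log2 per unit of the score, Jun 2.07 and Bmp15 -0.85, while Atf3 had 0.0045. In the controls 5 of 15148 genes were called (0.033%), with 1165 at an unadjusted p under 0.05. These were Trim36, Baiap2 and Ppif with positive and Pgap2 and Snx3 with negative slopes, and none belongs to the lists. In the controls 47.3% of the genes called higher and 41.9% of those called lower had a slope of the matching sign, beside 50.69% and 44.75% over all genes tested on the same sides. The test of the difference between the slopes called 1 of 12784 genes (0.00782%, with 1319 at an unadjusted p under 0.05), and 0 without the middle embryo that was highest in cumulus cell markers, so a difference between treated and control embryos was not shown for the named genes.

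**Figure D5:**
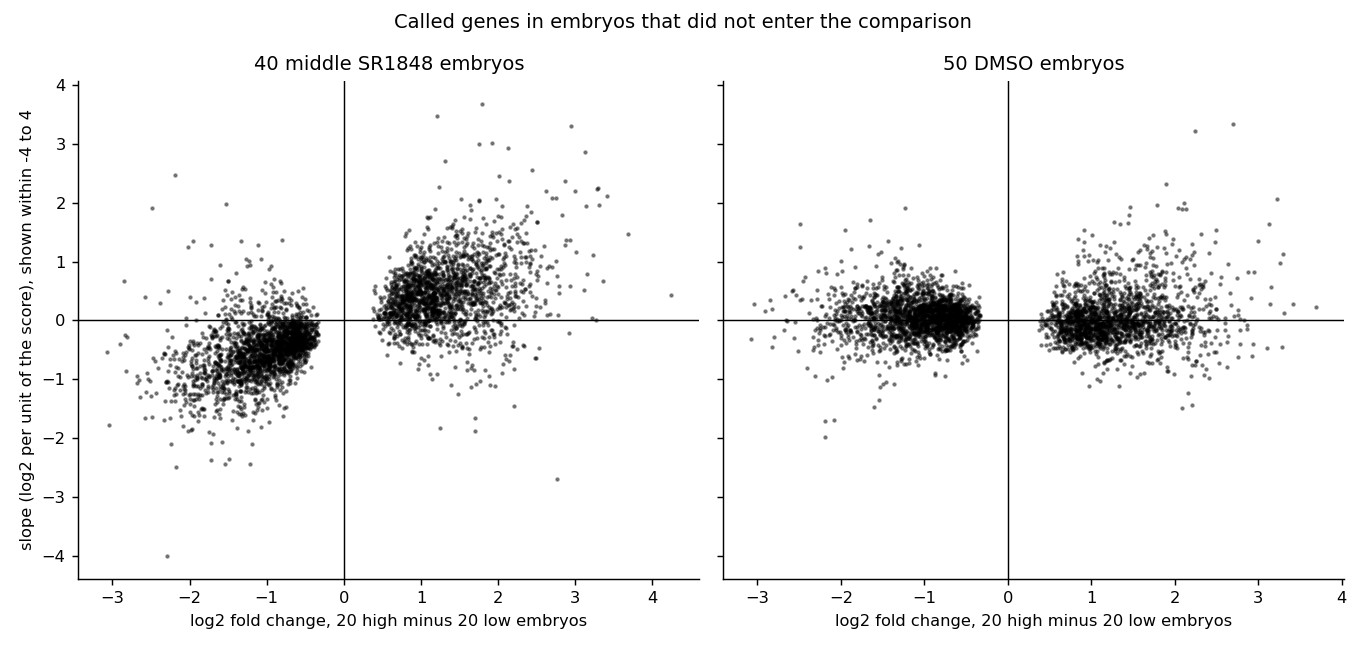
Slope on the score in the 40 middle SR1848 embryos (left) and the 50 DMSO embryos (right) against the log2 fold change between high-score and low-score embryos, 1 point per called gene. On the left most points lie in the quadrants of matching sign (84.2% and 91.8%), on the right 47.3% and 41.9% do; over all genes tested the shares are 69.85% and 73.45% on the left and 50.69% and 44.75% on the right.

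Against the controls, the high-score embryos were the nearer group for most genes, called or not. The median CPM of the high-score embryos was nearer to the control median than that of the low-score embryos in 70.8% of the genes called higher and 72.9% of those called lower, beside 59.9% of all genes tested. On the log2 scale the genes called higher lay at a median of -0.18 from controls in high-score and -1.59 in low-score embryos, and the genes called lower at 0.054 and 0.96.

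The promoter motifs shown above were counted over the genes with a RefSeq window. The ER stress response element was found in 6 of 21 ER chaperone genes with a window, in 0.305% of genes called higher, in 0.316% of genes called lower, in 0.226% of all genes tested and in 0.137% of all 27025 promoters. The UPR element was found in 0.839% of genes called higher, 0.821% of genes called lower, 0.984% of genes tested and 0.714% of all promoters. The C/EBP-ATF element was found in 9 of 24 ATF4 and CHOP targets, in 2.14% of genes called higher, 4.11% of genes called lower, 3.03% of genes tested and 4.51% of all promoters. The share in genes called lower thus lay above that of the genes tested and below that of all promoters. The search says only which letters are in these windows.

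Markers of other cells that a library could hold were low in the compared groups, apart from alpha-globin. Of 18 cumulus cell markers 15 had medians under 1 CPM in both groups, with Amh, Pgr and Ptx3 at 0 in all 40 embryos, and their summed level ran from 3.12 to 37.1 CPM in high-score and from 0.872 to 26.2 CPM in low-score embryos. Among the 40 middle embryos 1 stood apart with a summed cumulus level of 435 CPM, the next having 42.9. Without it, 1 gene was again called for a slope on the score, and the signs matched in 84.4% and 92.1% of the genes called higher and lower. Of 10 sperm markers 8 had medians under 1 CPM in both, with summed levels of 0.721 to 7.84 and 2.18 to 12.8 CPM. Of 10 blood markers 7 had medians under 1 CPM in both, with summed levels of 91.7 to 600 and 58.6 to 466 CPM. The blood sum was nearly all from the alpha-globin genes Hba-a1 and Hba-a2, whose medians were 84.2 and 133.6 CPM in high-score, 49.3 and 80.8 in low-score and 12.4 and 20.3 in control embryos, while the beta-globin gene Hbb-bt was at 0 in all 40. The 1 cumulus and 3 blood markers that were tested were not called.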

How the data were processed

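Single embryos were measured by Smart-seq2, and the authors deposited estimated counts for each transcript (made with kallisto 0.46.1 and Trim Galore 0.6.2, per the submitters' processing notes, which also name mm10 and hg19 without a role). Values in this table are not normalized, and 28.1% of them are not whole numbers. Counts were summed per gene name over 117194 of 119358 entries, giving 35973 names, and rounded for the tests; entries without a name held 0.935% of counts and stayed out of totals. The 5 other entries held 0.0258%. Reads shared by near-identical copies are split by estimate. A count of 0 allows up to 1.01 CPM at the lowest total (3 counts, counting error only), and reads carry no molecular identifiers.

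High-score against low-score embryos were tested in edgeR 4.0.16 (R 4.3.3) with TMM factors, filterByExpr, a robust quasi-likelihood fit and two-sided tests; Benjamini-Hochberg adjustment was over 11666 genes. The score genes were left out of all counts of calls. Standard errors were obtained by dividing each fold change, on the log2 scale and without sign, by the square root of its F statistic. Slopes on the score used the same test. Library measures used two-sided permutation tests of 100000 resamples over 5 measures, with embryos thinned to 3273726 counts for detected genes, which left out 3 low-score embryos. On simulated counts for high-score against low-score embryos (10091 genes), 26% of genes changed by 1 and 98% of those changed by 2 on the log2 scale were recovered, with 3 false calls. For the slope in middle embryos (10117 genes) these were 0% and 13%, and in controls (10315 genes) 7% and 65%. The simulation drew each gene independently, with the same dispersion for all genes, a mean of at least 5 CPM and 100 changed genes per size. For controls it used the coefficient of variation of the middle embryos (0.80), above their own (0.73). Real genes differ in spread and are not independent, so these shares do not give the recovery in the tests above.

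The members, the 26 lists and the tests were chosen with earlier results of these data known. The named genes are the score genes, the 12 largest rises and 12 largest falls among called genes with a mean of at least 20 CPM (predicted genes left out), from each list its most abundant member and the 4 with the smallest p, genes called in both the comparison and the middle slope (0 genes), and Nr5a2. Of the 136 genes this gives a part is named, and 42 more, the members needed to complete short counts and a few single ones, were chosen after their values were seen. Gene coordinates follow GENCODE M21 (mm10) and promoter windows RefSeq on GRCm38.p6. Alternatives were other scalings, filters, tools (DESeq2 1.42.0, limma-voom 3.58.1), covariates, scores and group sizes, and embryo numbers up to or above 40. Scaling to oocyte transcripts, CPM on all entries and leaving out shallow embryos were added after seeing the data.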

Additional observations from a re-analysis of the deposited data

Results flagged for a closer look

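The slope on the score differed between middle SR1848 and control embryos for 1 gene, Sec1, which encodes a fucosyltransferase. Its slope was 5.66 log2 per unit of the score higher in the SR1848 embryos (edgeR, adjusted p = 0.0370), but its median was 0.570 CPM in high-score, 0 in middle and low-score and 34.4 CPM in control embryos. The estimate for the treated embryos therefore rests on few counts.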

How the results depend on the processing

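Among the high-score and low-score embryos, 3825 genes were called in the comparison as reported. The count lay within 1.5 times of this, between 2884 and 5680, under the other scalings, filters, covariates of depth and detected genes, tools, scores and group sizes, and moved in these cases: 6280 when scaled to oocyte transcripts, 105 with the oocyte level as covariate, 1145 in embryos with numbers up to 40 and 2209 above 40. For the last pair, fewer embryos entered (17 and 23). Slopes in middle embryos gave 1 call as reported, 0 with RLE factors, log2 total count or detected genes as covariate, 2 with total counts only, 4 at 5 CPM, 815 with no filter and 1201 when scaled to oocyte transcripts. Slopes in controls gave 5 calls as reported, 9 with total counts only, 716 with no filter, 2 with detected genes as covariate and 3 when scaled to oocyte transcripts. The difference of slopes gave 1 call as reported, 0 without the middle embryo highest in cumulus markers (an alternative chosen after seeing the data), 558 with no filter and 164 when scaled to oocyte transcripts. The cause of these moves was not tested. No paired analysis was possible because each embryo number occurs once among SR1848 embryos, so high-score and low-score embryos share none; for the difference of slopes, embryo number as a replicate block in the 56 embryos that share 28 numbers gave 0 calls, as did the same embryos without the block.

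Scaled to oocyte transcripts, these log2 fold changes reversed: Ahsa1 to 0.39, Atg5 0.028, Atp6v1h 0.071, Bcl2l10 0.15, Ddb2 0.15, Eif2b1 0.19, Hmgcs1 0.24, Klf17 0.30, Map3k5 0.081, Mbtps2 0.030, Mdm4 0.016, Nfe2l2 0.053, Os9 0.16, Psmb2 0.048, Psmd1 0.15, Psmd4 0.36, Rrn3 0.47, Sc5d 0.24, Shmt2 0.43, Srebf2 0.081 and Yap1 0.40. With the oocyte level as covariate, these reversed: Bcl2l10 to 0.050, Bcl2l11 -0.083, Eif2b1 0.072, Klf17 0.093, Os9 0.099, Prdx1 0.054, Psmd4 0.31, Sc5d 0.28, Slc1a5 -0.43, Srebf2 0.093, Ube2j2 -0.012 and Zbed3 -0.28. Zbed3 also reversed with 40 against 40 embryos (-0.12), with the continuous score (-0.0083) and with numbers up to 40 (-0.072), where Yap1 was 0.11. With 10 against 10 embryos, the difference in total counts reversed to -128470 (permutation adjusted p = 0.808) and that in detected genes after thinning rose from 305 to 912 (permutation adjusted p = 0.00628). With the oocyte level as covariate, 104 named genes kept their direction and lost their call, not counting Rnf5, which did likewise (-1.11, adjusted p = 0.278, edgeR).

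Xbp1 and Atf3 were at 0 in part of the low-score embryos, which depth limits. Groups were formed by measured levels, and the stage of each embryo beyond its label is not known here.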
